A study of Mus musculus with 6 samples.

Results

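The plasminogen activators and the proteins around them were followed here through 5 genes: *Plat* and *Plau*, the activators, *Plaur*, the receptor of urokinase, and the serpins *Serpine2* and *Serpinf1*. Each was found in the deposited table by its gene symbol, so all 5 of 5 were recovered out of 25140 listed genes, and all 5 had enough counts to be tested. The libraries came from C57BL/6 mouse fibroblasts at passage 1, grown in 10% FBS and 25 mM glucose. The cells were moved to 1% FBS beforehand, for 16 h by the labels and 24 h by the study's methods. Vehicle or 10 ng/ml TGFβ was then given for 24 h, still in 1% FBS. There were 3 libraries of each kind and no engineered allele in either group. The labels and the study's methods name cardiac fibroblasts of the adult heart, while its results speak of mouse embryonic fibroblasts. The methods call the libraries biological replicates, and the labels do not say whether they came from separate hearts, so the p-values measure the spread between these cultures.

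Plasminogen is an inactive protease that circulates in blood and seeps into tissue. Tissue-type activator (tPA, from *Plat*) and urokinase (uPA, from *Plau*) cut it into plasmin, which dissolves fibrin, digests other matrix proteins and activates further proteases. The urokinase receptor (uPAR, from *Plaur*) holds urokinase at the cell surface, and inhibitory serpins trap both activators in stable complexes that are then taken up by the cell. In fibroblasts the balance between activators and these inhibitors is known to set how fast provisional and scar matrix is removed.

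The members lie apart in the genome (GENCODE M21 gene models on GRCm38, the assembly known as mm10), and all are annotated as protein-coding. *Plat* (ENSMUSG00000031538) occupies chromosome 8, bases 22757727 to 22782844, and *Plau* (ENSMUSG00000021822) chromosome 14, bases 20836660 to 20843385. *Plaur* (ENSMUSG00000046223) occupies chromosome 7, bases 24462484 to 24475968, and like both activators is read from the plus strand. The serpins are read from the minus strand, *Serpine2* (ENSMUSG00000026249) on chromosome 1, bases 79794197 to 79861180, and *Serpinf1* (ENSMUSG00000000753) on chromosome 11, bases 75409769 to 75422701. No other annotated gene overlaps any of them, and 0% of the 75-base windows in the longest transcript of each occur in transcripts of other genes.

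RefSeq promoter windows (GRCm38.p6) matched 3 of the 5 members, *Plaur*, *Serpine2* and *Serpinf1*. They are shown because *Plaur* and *Serpinf1* rose with TGFβ and *Serpine2* fell, so a reader can compare the letters before the starts of genes that moved in different directions. Each is read 5′ to 3′ on the strand of its gene, from 250 bases before the RefSeq start up to the first annotated exon, and capitals mark the motifs searched:
Plaur, chr7:24462233-24462482, plus strand: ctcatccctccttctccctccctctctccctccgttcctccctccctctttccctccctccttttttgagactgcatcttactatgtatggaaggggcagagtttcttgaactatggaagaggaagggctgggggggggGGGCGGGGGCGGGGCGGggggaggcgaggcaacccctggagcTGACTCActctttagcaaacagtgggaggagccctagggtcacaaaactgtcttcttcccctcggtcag
Serpine2, chr1:79858697-79858915, minus strand: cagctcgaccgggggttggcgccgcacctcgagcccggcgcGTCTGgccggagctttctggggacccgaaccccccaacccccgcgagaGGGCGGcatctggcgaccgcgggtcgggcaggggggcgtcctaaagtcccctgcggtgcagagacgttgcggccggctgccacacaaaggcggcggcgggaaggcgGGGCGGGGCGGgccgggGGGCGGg
Serpinf1, chr11:75422702-75422873, minus strand: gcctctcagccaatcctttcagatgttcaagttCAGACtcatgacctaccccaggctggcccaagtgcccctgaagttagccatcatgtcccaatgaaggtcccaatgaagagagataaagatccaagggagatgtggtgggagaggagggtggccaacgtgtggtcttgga

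The motifs searched, on both strands, were CAGAC (the core bound by SMAD proteins), CAGACA (the CAGA box, which contains it), TGANTCA (AP-1), GGGCGG (the GC box, whose copies may overlap) and TATAAA (the TATA box). The *Plaur* window held an AP-1 motif from 69 to 63 bases before the start, where 6.75% of the 32851 RefSeq windows of 250 bases hold one, and 3 GC boxes. The full *Serpine2* window held 6 GC boxes, a motif in 32.7% of windows, and 1 CAGAC core, a motif in 42.2%. The full *Serpinf1* window held 2 CAGAC cores, of which that 38 bases before the RefSeq start continued as CAGACA, a motif in 17.1% of windows. The *Serpinf1* gene model starts 78 bases upstream of the RefSeq start. This CAGACA therefore lies in annotated exon and outside the letters printed. TATAAA, found in 12.4% of windows, was in none of the 3. These are matches of letters, and binding was not measured here. The *Serpine2* gene model also has a start 2515 bases further upstream than the RefSeq start used here. The last 31 bases of its window lie in annotated exon, with the GC boxes that begin 19 and 13 bases before the RefSeq start.

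Reads counted on genes totalled 27851677 to 31072338 per library. Levels are given as CPM, the gene's share of its library on TMM-scaled sizes. A gene was called changed where the quasi-likelihood test of edgeR gave p of at most 0.05 after Benjamini-Hochberg adjustment across the 14334 genes tested, and each adjusted p below is of that kind unless another tool is named. Libraries are lettered A to C within each group in the order of the count columns, which carry no replicate number. Whether the same letter in both groups marks a shared origin is not known, and no fit used the letters as pairs. The treatment was visible in the myofibroblast genes *Acta2* (log2 fold change 1.03) and *Postn* (1.55). All 9 fibroblast markers were expressed, 7 of them lower with TGFβ. The sum of the 9 was 38079 to 42850 CPM with vehicle and 41555 to 45016 CPM with TGFβ. Most of this sum was *Col1a1* (mean 19991.7 CPM with vehicle, 23483.5 CPM with TGFβ) and *Col1a2* (13656.5 and 14966.8 CPM), neither of them called. Markers of other cells were present at lower sums, 418 to 714 CPM for 8 endothelial genes (0 called). Leukocyte genes summed to 216 to 351 CPM (0 called). The 6 cardiomyocyte genes, of which 3 were tested, summed to 27.5 to 60.1 CPM (0 called). Nearly all of the cardiomyocyte sum was *Tnnt2* (mean 40.4 CPM over all libraries), and no other gene of that list averaged over 1 CPM. The mesothelial sum was 91.8, 25.1 and 35.3 CPM in vehicle A to C and 48.6, 16.8 and 20.2 CPM in TGFβ A to C (0 called). This sum was highest in library A of both groups. That of smooth muscle and pericyte markers was 342 to 377 CPM with vehicle and 239 to 277 CPM with TGFβ, with 2 markers higher and 1 lower. The lower marker, *Notch3*, averaged 207 CPM with vehicle and 57.3 CPM with TGFβ and carried the fall of this sum. The higher markers were *Smtn*, from 91.0 to 111 CPM, and *Cspg4*, from 19.5 to 53.3 CPM. In cultures, fewer cells of a type and less RNA per cell cannot be told apart.

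Of the 5 members, *Plaur* and *Serpinf1* rose, *Plat* and *Serpine2* fell and *Plau* was not called. That is 4 of 5 called, where 40.7% of all tested genes were called, 20.5% higher and 20.1% lower. Groups did not overlap in 3 of 5 members, *Plat*, *Serpine2* and *Serpinf1*, against 53.3% of all tested genes (27.2% higher and 26.1% lower). The receptor and tPA had the larger changes: only 11.4% of tested genes had a larger log2 fold change in size than *Plaur* and 13.1% than *Plat*, against 52.1% for *Serpine2*.

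*Plat*, the activator that works best on fibrin, was at 110.4, 110.3 and 113 CPM in vehicle libraries A to C and at 67.0, 68.2 and 70.9 CPM in TGFβ libraries A to C. The groups lay far apart and the libraries within each differed little. Vehicle averaged 111 ± 1.47 CPM against 68.7 ± 2.03 CPM after TGFβ (SD, n = 3), so that vehicle was 1.62-fold higher. The log2 fold change was -0.69 (SE 0.04, edgeR adjusted p = 1.58e-05), and it stayed between -0.73 and -0.68 over 14 alternatives, all of which called it. In an exact permutation test of its CPM (two-sided), p was 0.1, the smallest that 3 libraries against 3 allow, as it was for *Serpine2* and *Serpinf1*. The 8 endothelial markers summed to 459, 524 and 714 CPM in vehicle A to C and to 418, 469 and 582 CPM in TGFβ A to C, and their part in the *Plat* values was not tested.

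*Plau*, which encodes urokinase, was at 34.0, 35.4 and 61.8 CPM with vehicle and at 27.7, 27.5 and 51.4 CPM with TGFβ. Library C was high in both groups, 1.78 times the mean of A and B with vehicle and 1.86 times with TGFβ, and the groups overlapped. For each letter the TGFβ library was the lower, and no fit compared the letters as pairs. The means were 43.7 ± 15.7 and 35.5 ± 13.8 CPM (SD, n = 3). The log2 fold change was -0.30 with a 95% interval from -1.01 to 0.41 (edgeR adjusted p = 0.475; two-sided exact permutation p = 0.5). Without vehicle C the log2 fold change was 0.04, and without TGFβ C it was -0.67.

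The summed leukocyte and endothelial markers were also highest in library C of both groups, and no fit planned beforehand tested their part in the *Plau* values. The leukocyte markers summed to 247, 259 and 351 CPM in vehicle A to C and to 216, 230.2 and 320 CPM in TGFβ A to C. The sum in library C was 1.385 times the mean of A and B with vehicle and 1.434 times with TGFβ. Of 8 markers, 7 were listed, 5 of them (*Cd68*, *Adgre1*, *Csf1r*, *Lyz2* and *C1qa*) highest in library C of both groups, and *Cd3e* was not listed. *Ptprc* was highest in vehicle C but not in TGFβ C, at 2.52, 3.47 and 2.98 CPM in TGFβ A to C. *Cd79a* held at most 1 count per library. *Lyz2*, the lysozyme of macrophages, made up most of the sum and was at 201, 206 and 290 CPM with vehicle and 172, 176 and 258 CPM with TGFβ. The endothelial sum was also highest in library C, at 714 CPM (vehicle) and 582 CPM (TGFβ). The log2 sum of the leukocyte markers was fitted as a covariate, an alternative chosen after these values were seen and carried mostly by *Lyz2*. The log2 fold change of *Plau* was then -0.02 (edgeR adjusted p = 0.765) and that of *Plat* -0.68 (edgeR adjusted p = 1.97e-06). *Plat* varied little between the libraries of a group, so this setting could hardly change its value and adds nothing to its call. Of the genes compared, *Lyz2* had the profile most similar to *Plau* (Pearson's r = 0.9988), so this fit cannot tell them apart.

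**Figure D1:**
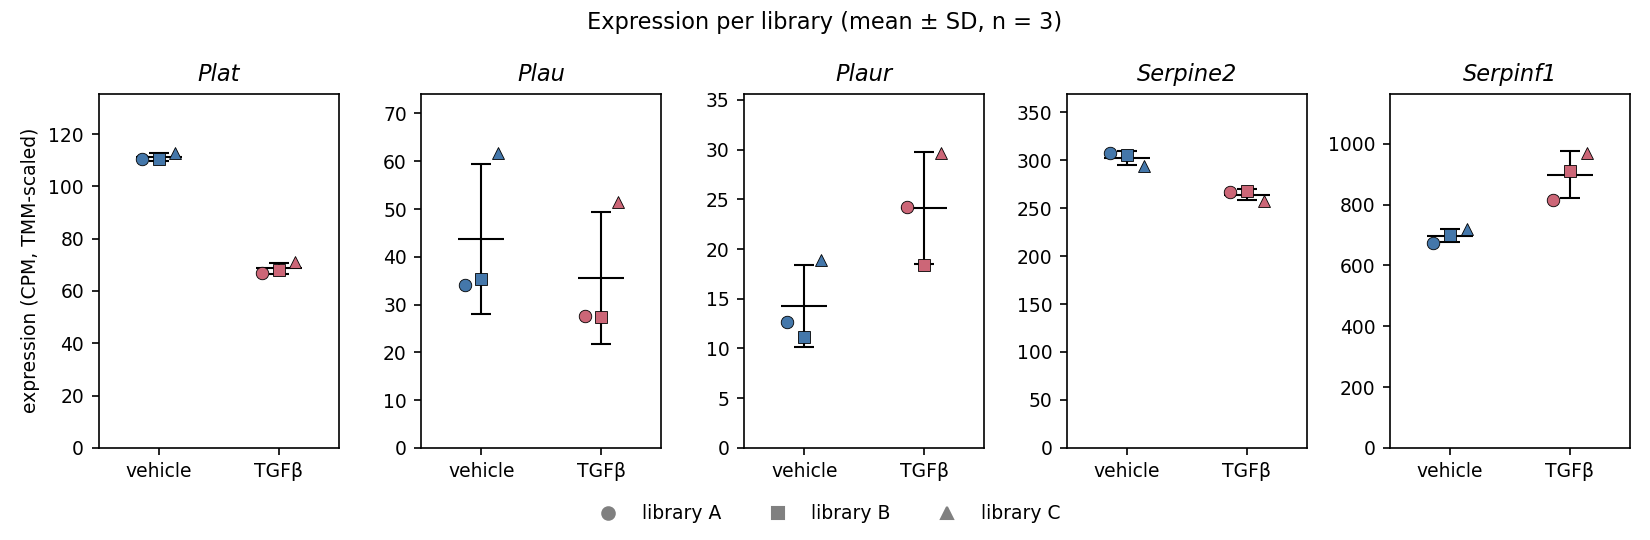
Expression of the 5 members in CPM (y axis, from 0) in the vehicle and TGFβ libraries, with the marker shape giving the library and bars the mean ± SD (n = 3). *Plat* and *Serpine2* sit lower and *Serpinf1* higher in every TGFβ library, and every member except *Serpine2* is highest in library C of each group, by the largest ratio in *Plau*.

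**Figure D2:**
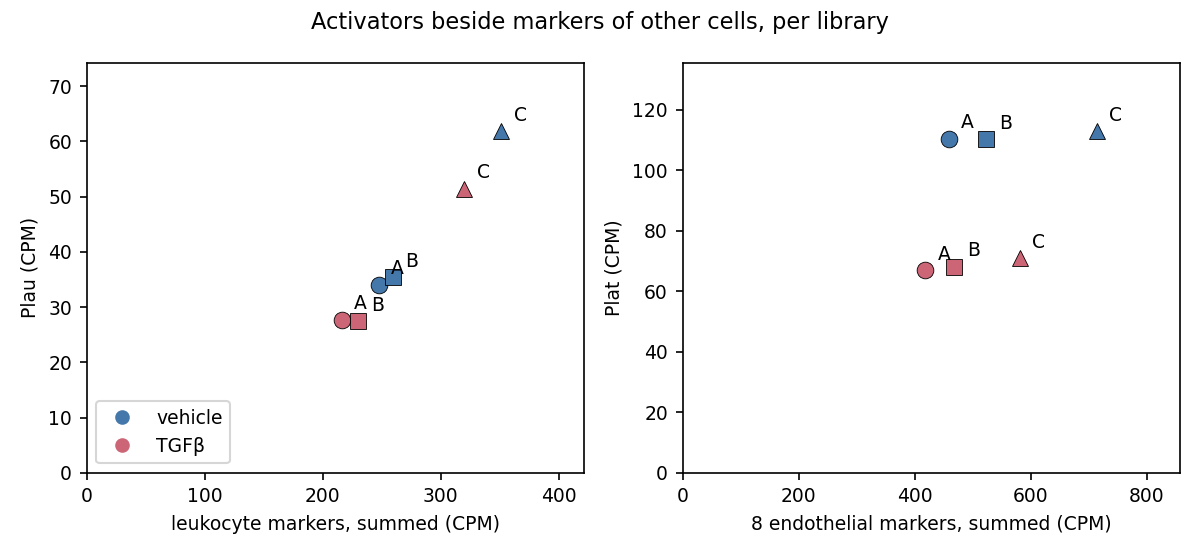
Left, *Plau* in CPM against the summed CPM of the leukocyte markers, and right, *Plat* in CPM against the summed CPM of 8 endothelial markers, 1 point per library, lettered A to C. *Plau* is highest in the libraries with the highest leukocyte sums (351 and 320 CPM), and *Plat* is lower in all 3 TGFβ libraries.

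With libraries vehicle C and TGFβ C both left out, a choice made because of the *Plau* values themselves, *Plau* was at 34.0 and 35.4 CPM against 27.7 and 27.5 CPM. The log2 fold change was then -0.33 (edgeR adjusted p = 0.00379), close to the value over all 6 libraries. This call rests on 2 libraries against 2 that were picked for lying close together.

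*Plaur*, the receptor that concentrates urokinase at the cell surface, had the lowest level of the 5. It was at 12.7, 11.1 and 18.9 CPM with vehicle and at 24.3, 18.4 and 29.7 CPM with TGFβ. Library C was again the highest of each group, and vehicle C lay just above TGFβ B, so the groups overlapped. The means were 14.2 ± 4.12 and 24.1 ± 5.64 CPM (SD, n = 3), a rise of 1.70-fold. The log2 fold change was 0.76 (SE 0.23, edgeR adjusted p = 0.0289; two-sided exact permutation p = 0.2). The call was lost without vehicle A (edgeR adjusted p = 0.087), vehicle B (0.0866), TGFβ A (0.0802) or TGFβ C (0.0846), with a log2 fold change between 0.58 and 1.02 over the 6 libraries left out in turn. It was 0.94 (edgeR adjusted p = 0.000606) with the leukocyte markers as a covariate and 0.84 (edgeR adjusted p = 0.00454) without vehicle C and TGFβ C. Both settings were chosen after the library C values were seen, and *Plaur* is itself highest there, so they cannot decide how firm its call is.

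**Figure D3:**
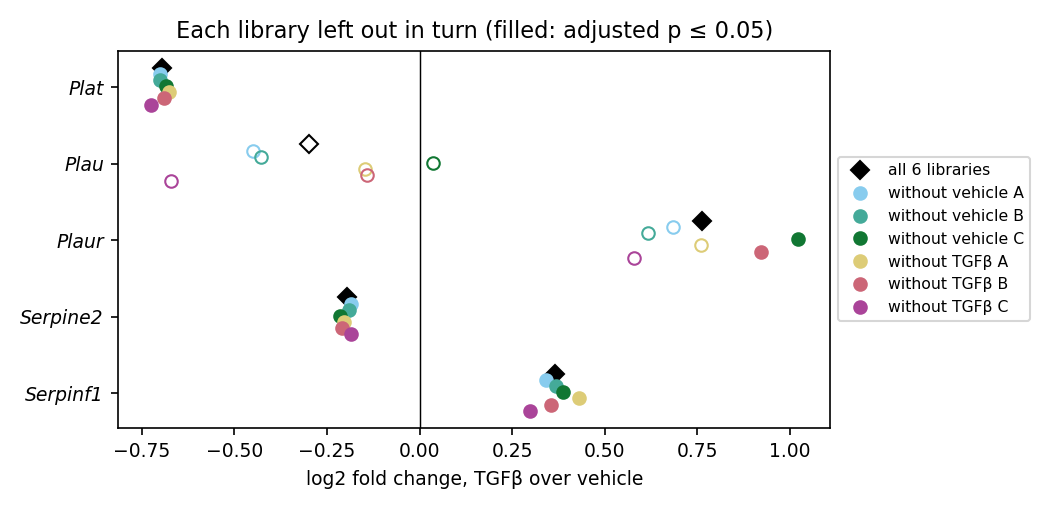
Log2 fold change of TGFβ over vehicle (x axis) of each member with all 6 libraries (diamonds) and with each library left out (circles, coloured by the library), filled where the adjusted p from edgeR was at most 0.05. *Plat*, *Serpine2* and *Serpinf1* form tight, filled clusters, *Plaur* loses its call in 4 of 6 cases and *Plau* spreads from -0.67 to 0.04 with no call.

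*Serpine2* encodes protease nexin 1, a secreted serpin that inhibits thrombin, urokinase and tPA. It was at 308, 305 and 294 CPM with vehicle and at 267, 268 and 257 CPM with TGFβ. Every TGFβ library lay below every vehicle library, but the step was small. The means were 303 ± 7.17 and 264 ± 5.86 CPM (SD, n = 3), with vehicle 1.15-fold higher. The log2 fold change was -0.20 (SE 0.04, edgeR adjusted p = 0.00674), and every one of 14 alternatives called it, with adjusted p between 0.000563 and 0.0337.

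*Serpinf1* encodes pigment epithelium-derived factor, a secreted serpin best known for restraining blood vessel growth, which does not inhibit proteases. It was at 675, 700.1 and 719.8 CPM with vehicle and at 816, 909.6 and 971 CPM with TGFβ. All TGFβ libraries lay above all vehicle libraries. The means were 698 ± 22.6 and 899 ± 78.2 CPM (SD, n = 3), a rise of 1.29-fold. The log2 fold change was 0.36 (SE 0.07, edgeR adjusted p = 0.00436), and all 14 alternatives called it, with values between 0.30 and 0.43. *Serpine2* and *Serpinf1* thus moved in opposite directions, the protease inhibitor down and the protein that inhibits no protease up. This is 1 gene of each kind, and other inhibitory serpins went both ways. Among them *Serpini1* rose (log2 fold change 0.39) and *Serping1* fell (-1.12).

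Levels of different genes were compared only per length, as CPM per kb of annotated exon. With vehicle, *Serpinf1* stood highest at 296 ± 9.57 CPM per kb, followed by *Serpine2* at 36.5 ± 0.865, *Plau* at 18.5 ± 6.62, *Plat* at 17.8 ± 0.236 and *Plaur* at 5.44 ± 1.57 CPM per kb (SD, n = 3). *Plau* and *Plat* did not differ beyond their spread. With TGFβ the order was *Serpinf1* at 381 ± 33.1, *Serpine2* at 31.9 ± 0.707, *Plau* at 15.0 ± 5.81, *Plat* at 11.01 ± 0.325 and *Plaur* at 9.23 ± 2.15 CPM per kb (SD, n = 3). There *Plat* did not differ from *Plau* or from *Plaur* beyond their spread. These levels rest on the exon length taken. It is 8.287 kb for *Serpine2* against 3.393 kb for its longest transcript, which would raise *Serpine2* relative to the others. For *Plat* it is 6.241 kb against 4.042 kb. With the longest transcripts the log2 ratio of *Plau* to *Plat* was -0.91, -0.85 and -0.08 in vehicle A to C. The order and ties above are thus those of the exon length.

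Ratios within a library show how the members shifted against each other. For a ratio of 2 single genes, the difference between groups does not depend on the length taken. The log2 ratio of *Plau* to *Plaur* per kb was 1.57, 1.81 and 1.85 with vehicle and 0.34, 0.72 and 0.94 with TGFβ. The receptor mRNA thus gained on that of its ligand by 1.08 on the log2 scale, without overlap of the groups. No test was made of this ratio. *Plau* itself was not called, and the call of *Plaur* was lost in most fits with a library left out. The log2 ratio of *Plat* to *Serpine2* per kb was -1.07, -1.06 and -0.97 with vehicle and -1.59, -1.57 and -1.45 with TGFβ, again without overlap. In the vehicle libraries *Serpine2* mRNA was 2.05 times that of *Plat* per kb, and in the TGFβ libraries 2.89 times, or 3.24 and 4.58 times with the longest transcript as length. The log2 ratio of *Plau* to *Serpine2* was -1.37, -1.30 and -0.44 against -1.46, -1.48 and -0.51, with overlap. That of *Plau* to *Plat* was -0.30, -0.24 and 0.53 against 0.13, 0.09 and 0.93, also with overlap. The summed activators against *Serpine2* overlapped as well, from -0.21 to 0.32 with vehicle and from -0.52 to 0.09 with TGFβ.

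The genes with the most similar profile over the 6 libraries were picked by Pearson's r of log2 CPM among the 10372 other genes that averaged 5 CPM or more, as a description, since the libraries share the treatment and 40.7% of tested genes follow it. For *Plau* they were *Lyz2* (r = 0.9988) and *Hdac4* (r = 0.9974), whose log2 fold changes with TGFβ were -0.20 and -0.08. For *Plat* they were *Pnrc1* (r = 0.9995) and *Rab11b* (r = 0.9994), for *Plaur* *Pom121* (r = 0.9960) and *Kif2a* (r = 0.9952), for *Serpine2* *Krit1* (r = 0.9987) and *Usp28* (r = 0.9975), and for *Serpinf1* *Pcolce2* (r = 0.9984) and *Abcg1* (r = 0.9971).

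Around the members, 29 further genes of the plasminogen system were listed, of which 27 were in the table and 20 had enough counts to be tested. Of these, 6 were higher and 4 lower with TGFβ, so 50% were called against 40.7% of all tested genes, and their median log2 fold change was 0.10 against -0.0013 over all tested genes. Without vehicle C, TGFβ A or TGFβ B, 5 were higher and 2 lower. The 40.7% is of the fit with all 6 libraries and is not the share to set beside these counts. The proenzyme gene *Plg*, made by liver, was not listed in the table. Among the inhibitors, *Serpini1*, encoding neuroserpin, an inhibitor of tPA, rose from 18.5 ± 0.897 to 24.3 ± 1.71 CPM (SD, n = 3). *Serpinb2*, an inhibitor of urokinase, and *Serpina5*, encoding the protein C inhibitor, and *Serpinf2*, encoding the inhibitor of plasmin, held too few counts for the test, at 0 to 10, 1 to 8 and 0 to 1 counts per library.

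Plasminogen docks on cells at several proteins. *Anxa2*, a subunit of a plasminogen-binding complex, rose by a log2 fold change of 0.31, a call that was lost in 4 of the 6 fits with a library left out, and for its partner *S100a10* the log2 fold change was 0.24 (95% interval -0.13 to 0.61). The plasminogen receptor gene *Plgrkt* was at 21.9 ± 0.284 (vehicle) and 22.7 ± 0.578 (TGFβ) CPM (mean ± SD, n = 3), with an interval of the log2 fold change from -0.06 to 0.16. Of the integrins that share vitronectin with uPAR, *Itgav* and *Itgb5* rose, by log2 fold changes of 0.39 and 0.46, and *Itgb3* was not called (log2 fold change 0.06, edgeR adjusted p = 0.824, groups overlapping). *Lrp1*, the receptor that clears activators in complex with their inhibitors, was at 2834 ± 76.2 and 3102 ± 444 CPM (SD, n = 3), with a log2 fold change of 0.13 (edgeR adjusted p = 0.345), and without TGFβ C it was 0.24 (edgeR adjusted p = 0.0152). *Sorl1*, a sorting receptor, had a log2 fold change of -1.66. *Hgf*, a growth factor whose precursor urokinase can cleave, and *Fap*, a membrane protease of activated fibroblasts, had log2 fold changes of -1.03 and -1.28. The *Hgf* call was lost without vehicle C (edgeR adjusted p = 0.106), TGFβ A (0.121) or TGFβ B (0.115).

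**Figure D4:**
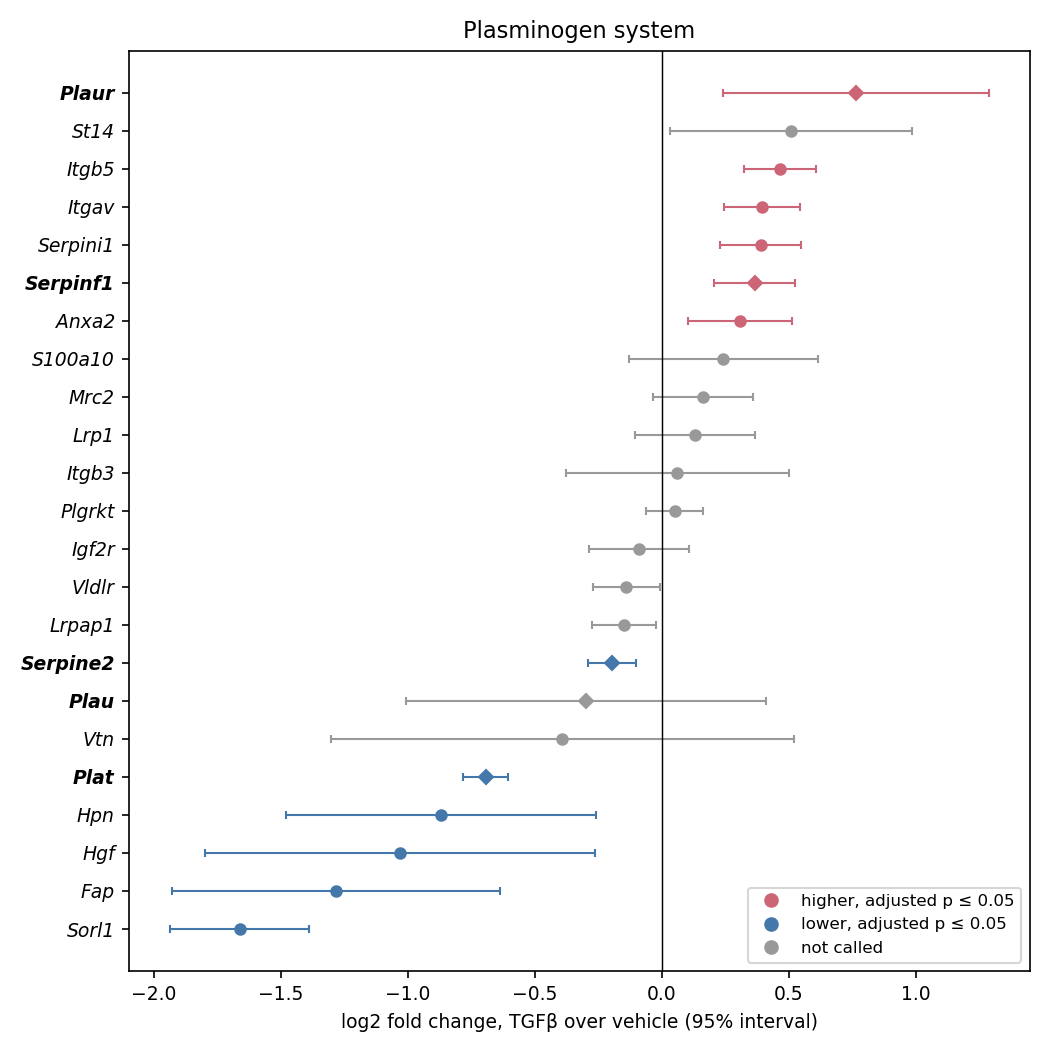
Log2 fold change of TGFβ over vehicle (x axis) with its 95% interval for the members (bold, diamonds) and 18 of the 20 tested genes of the plasminogen system list, coloured by call. Among the members *Plaur* lies highest at 0.76 and *Plat* lowest at -0.69, *Sorl1* lies at -1.66, and the interval of *Plau* spans 0.

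Within the serpin superfamily, 49 genes were listed in the table and 24 tested, *Serpine2* and *Serpinf1* among them. Of the 24, 5 were higher and 10 lower, so 62.5% were called against 40.7% of all tested genes (20.5% higher and 20.1% lower). Their median log2 fold change was -0.19. Most of the 10 lower serpins were *Serpina3* genes and a pseudogene of the same cluster on chromosome 12, described below. The fall of *Serpine2* was small beside that of other secreted serpins. *Serping1*, encoding the C1 inhibitor of complement, was at 996 ± 154 (vehicle) and 457 ± 68.9 (TGFβ) CPM (mean ± SD, n = 3), and its log2 fold change was -1.12. *Serpina3n*, an acute-phase serpin, was at 456 ± 147 and 136 ± 61.6 CPM (SD, n = 3), fell by 1.75 on the log2 scale, and was highest in library C of both groups. The neighbouring genes *Serpina3c*, *Serpina3f*, *Serpina3g* and *Serpina3i* had log2 fold changes from -3.07 to -1.44, and the pseudogene *Serpina3e-ps* one of -1.83. The pseudogene *Serpina3h* of the same cluster was not called, at 15.9 ± 0.941 and 13.3 ± 2.16 CPM (SD, n = 3), with overlapping groups and a log2 fold change of -0.25 (edgeR adjusted p = 0.121). Of the longest transcripts, 0.327% of the windows of *Serpina3c*, 5.61% of *Serpina3f*, 8.91% of *Serpina3g*, 6.87% of *Serpina3i*, 12.8% of *Serpina3h* and 11.1% of *Serpina3e-ps* occur in other genes, so their separate values are uncertain. *Serpinb8* had a log2 fold change of -1.03 and *Serpinb1a* rose by 0.57. *Serpinh1*, the collagen chaperone HSP47 and the serpin with the most counts, was at 2945 ± 164 and 3377 ± 212 CPM (SD, n = 3). Its log2 fold change of 0.20 missed the threshold (edgeR adjusted p = 0.0535) and passed it with limma-voom (0.045) and DESeq2 (0.0214).

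**Figure D5:**
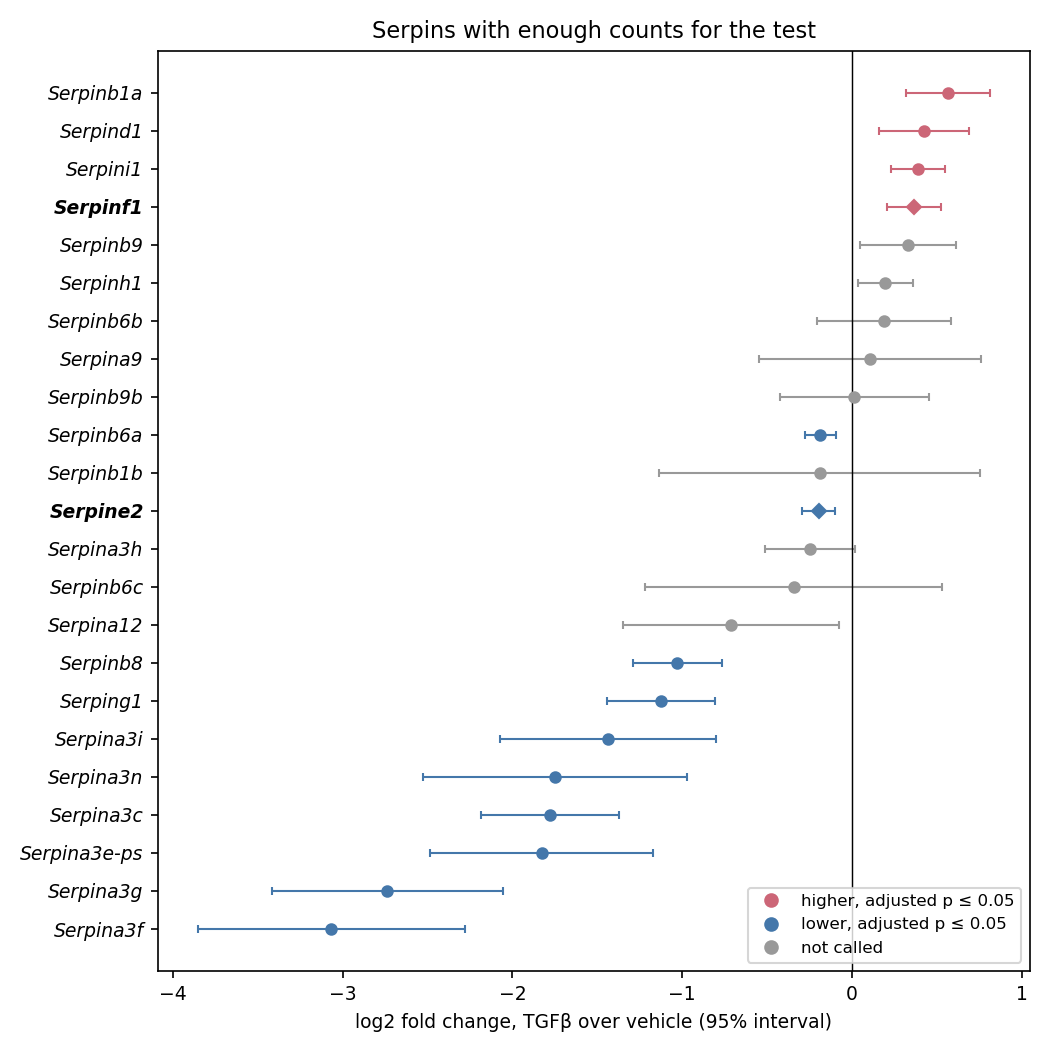
Log2 fold change of TGFβ over vehicle (x axis) with its 95% interval for 23 of the 24 tested serpins, coloured by call, with *Serpine2* and *Serpinf1* in bold. *Serpina3f* lies lowest at -3.07, while *Serpinf1* lies at 0.36 and *Serpine2* at -0.20.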

How the data were processed

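Poly(A) RNA of the 6 cultures was made into stranded libraries and read from one end, 75 bases a read, by the authors, whose notes name the mm10 build and DESeq2. The aligner, the counting tool, the annotation and the use of strand are not given in the sources used here. The authors deposited 1 table of raw counts, in whole reads, for each gene in each of the 6 libraries, with no normalization. Its further columns (a normalized mean, fold changes and p-values of their own comparison) were not used. The 6 count columns are all the per-sample values there are.

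Genes were filtered with filterByExpr of edgeR 4.0.16 (R 4.3.3), which kept 14334 of 25140, scaled with TMM factors and tested for TGFβ against vehicle by edgeR's quasi-likelihood F test without covariates. Each SE is the log2 fold change over the root of F. The biological coefficient of variation was 7.97%. Chi-square per gene between replicates was 7.41 to 25.0, far over counting noise. Each library was treated as 1 replicate. This spread cannot show whether the libraries came from separate hearts. Coordinates and exon lengths are from GENCODE M21 (GRCm38), which held 25086 of the gene identifiers. The steps were tested on simulated counts with the same spread for every gene and larger planted changes than those of the members. This does not show how they do on genes like *Plau*, whose libraries differ much within a group.

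The members and lists were chosen with earlier results of these data known. Genes named from a list have a mean of at least 5 CPM and are the called genes of largest fold change, up to 10, and the 3 of highest level; *Plgrkt*, *S100a10*, *Itgb3*, *Serpina3h*, *Serpinb2*, *Serpina5* and *Serpinf2* were named for their roles or as relatives of named genes, after their values were seen. Alternatives were edgeR with DESeq2 size factors or upper quartile scaling, DESeq2 1.42.0, limma-voom (limma 3.58.1), no filter, at least 1 CPM required in 3 libraries, omission of each library, stricter thresholds of 0.01 or a log2 fold change of 1, another gene length, and the 2 settings chosen after seeing the data that the text names as such. Some genes of the lists are counted in the totals but are not reported here singly or plotted.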

Additional observations from a re-analysis of the deposited data

How the results depend on the processing

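Over 14 alternatives *Plat*, *Serpine2* and *Serpinf1* kept their direction and their call. *Plau* was called only without vehicle C and TGFβ C (log2 fold change -0.33) and changed sign without vehicle C (0.036), with -0.67 to 0.04 over the libraries left out in turn. *Plaur* was 0.58 to 1.02 over the same fits, 4 of which lost its call. The coagulation list had 4 called genes without TGFβ A and 5 to 7 without another library. The share of all tested genes called with every library in the fit is not the one to set beside these counts. At an adjusted p of 0.01, 3595 genes were called in all and 3 of the coagulation list, and with a log2 fold change beyond 1, 971 genes in all, 4 of the plasminogen system, 9 serpins and 2 of the coagulation list, since both rules are stricter. With the longest transcript as length, the mean log2 ratio of *Plau* to *Plat* was -0.62 with vehicle and -0.23 with TGFβ (0.38 with exon length, so its sign turned), that of *Plau* to *Plaur* 1.38 and 0.30, of *Plat* to *Serpine2* -1.70 and -2.19, of *Plau* to *Serpine2* -2.31 and -2.42, and of the summed activators to *Serpine2* -0.96 and -1.29. Precision rests on 3 cultures a group. No paired analysis was possible because the count columns carry no replicate number.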

Other observations

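Genes of coagulation and of the response to thrombin, the protease that *Serpine2* inhibits best, were listed beside the plasminogen system. Of 17 such genes 12 were tested, and 2 were higher and 5 lower with TGFβ (58.3% called, against 40.7% of all tested genes), with a median log2 fold change of -0.25. *F2r*, the main thrombin receptor of fibroblasts, stood at 408, 386 and 384 CPM in the vehicle libraries and at 506, 489 and 512 CPM in the TGFβ libraries, without overlap (log2 fold change 0.36, SE 0.04, edgeR adjusted p = 0.000677). *Tfpi2*, a secreted inhibitor of plasmin and other serine proteases, rose from 12.01 ± 2.55 to 38.5 ± 8.95 CPM (SD, n = 3), by 1.68 on the log2 scale (edgeR adjusted p = 0.00042). *Thbd*, encoding thrombomodulin, which turns thrombin towards protein C, averaged 88.6 ± 12.2 (vehicle) and 61.6 ± 10.7 (TGFβ) CPM (SD, n = 3), and the call of its log2 fold change of -0.52 was lost in 3 of the 6 fits with a library left out. The vitamin K-dependent proteins *Gas6* and *Pros1*, ligands of TAM receptors, had log2 fold changes of -0.73 and -0.37, and the *Pros1* call was lost in 2 of those fits.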
